A study of Mus musculus with 8 samples.

Results

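Il6, Il11, Il10, Il6ra, Il10rb, Stat3 and Bcl6, genes of interleukin-6 and interleukin-10 signalling through the transcription factor STAT3, were examined in mouse conjunctiva under desiccating stress (DS), with tributyrin or vehicle given by mouth. The genes were chosen by symbol and make up 7 of the 248 genes measured. They encode ligands, receptor chains and transcription factors, and all 7 had a value in every mouse.

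The tributyrin group held 4 mice, numbered 9 to 12 in the labels, that were gavaged daily with tributyrin during DS. Tributyrin is a triglyceride that releases butyrate, a short-chain fatty acid otherwise made by gut bacteria. The vehicle group held 4 mice, numbered 5 to 8, that were gavaged daily with vehicle during DS. All 8 were female C57BL/6J mice, given an age of 8 weeks in the labels, and all were stressed for 5 days by dry moving air and by scopolamine injections that block tear secretion. The comparison is therefore between stressed animals, and the unstressed group was not analysed here.

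Interleukin-6 and interleukin-11 each bind a receptor chain of their own, which for interleukin-6 is IL-6 receptor alpha, and both then signal through the shared chain gp130. Interleukin-10 binds IL-10 receptor alpha together with IL-10 receptor beta, a chain that the interleukin-22 receptor also uses. These receptors activate Janus kinases, which phosphorylate STAT3, and STAT3 dimers then enter the nucleus and bind DNA. The outcome differs between cells, since STAT3 downstream of IL-10 restrains inflammatory genes in macrophages whereas IL-6 supports acute-phase responses and Th17 cells. BCL6 is a transcriptional repressor that STAT3 can induce in T cells. Phosphorylated STAT3 and the proteins themselves were not measured. The genes of gp130, IL-10 receptor alpha and the Janus kinases JAK1, JAK2 and TYK2 were not among the 248 genes measured.

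Values were counts of barcoded probes hybridized to RNA of whole conjunctiva, scaled by the authors to reference genes and here called normalized counts. In each mouse 100% of genes were whole multiples of 1 step (tolerance 0.001), which gave back the unscaled counts. These summed to 742068 to 1344723 in tributyrin mice and to 1035041 to 1494519 in vehicle mice, and tributyrin mice 9 and 12 were the shallowest. Groups were compared with limma on the log2 values, with p-values adjusted over all 248 genes, and every log2 fold change is tributyrin over vehicle. Of the 7 genes, 0 were called at an adjusted p under 0.05, against 0% of the panel (0 of 248), and other filters, scalings and models called 0 to 7 panel genes, none of them among the 7. At an unadjusted p under 0.05 there was 1 of the 7, Bcl6, against 12.5% of the panel (31 of 248). In whole tissue, fewer cells of a type and less RNA per cell cannot be told apart.

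The promoters of Bcl6 are shown because, among these genes, they held the sequence that STAT factors recognise. RefSeq windows of 300 bases on GRCm38.p6, running from 250 bases before a start site to 50 after it, were found for 5 of the 7 genes, in 7 windows in all. Il10 and Il10rb are named only. The windows were searched for TTCNNNGAA, which reads the same on both strands and resembles the sequence that BCL6 itself binds. The capitals mark the matches. The first Bcl6 window lies at chr16:23988803-23989102 and the second, at a start site inside the gene, at chr16:23981234-23981533, both on the minus strand.
Bcl6 window 1: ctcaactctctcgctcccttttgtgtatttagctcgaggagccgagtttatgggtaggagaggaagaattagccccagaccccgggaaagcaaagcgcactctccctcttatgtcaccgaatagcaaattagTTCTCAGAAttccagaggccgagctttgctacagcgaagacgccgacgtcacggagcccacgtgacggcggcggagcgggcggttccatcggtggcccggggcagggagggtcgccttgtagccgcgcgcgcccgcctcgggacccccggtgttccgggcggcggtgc
Bcl6 window 2: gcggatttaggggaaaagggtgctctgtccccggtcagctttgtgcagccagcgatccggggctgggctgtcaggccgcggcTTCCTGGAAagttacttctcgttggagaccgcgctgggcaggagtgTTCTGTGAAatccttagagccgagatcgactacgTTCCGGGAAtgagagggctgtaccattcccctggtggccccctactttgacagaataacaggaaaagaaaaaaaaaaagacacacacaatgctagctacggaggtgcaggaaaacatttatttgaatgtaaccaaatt
The first window held 1 match, TTCTCAGAA, which begins 118 bases before the start site. The second held 3 matches, TTCCTGGAA at 168 bases, TTCTGTGAA at 122 bases and TTCCGGGAA at 88 bases before the start site. The windows of Il6, Il11, Il6ra and Stat3 held none, which says only that these letters are not in those windows. Over all promoters in the RefSeq table, 8.30% of windows (2726 of 32851) held at least 1 match, and 11 windows held 3 or more. Among the windows of panel genes the share was 12.6% (29 of 231). Counted by gene instead of by window, 15.1% of the panel genes with a window (28 of 185) held a match. Those 28 genes had a median log2 fold change of 0.06, with 22 above 0 and 6 below, and the 157 panel genes without a match had a median of 0.05, with 112 above 0 and 45 below. A match is a stretch of letters, and binding of STAT3 or BCL6 was not measured.

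Among the ligands, Il6 (gene ID 16193, chr5:30013114-30019975), which encodes the founding cytokine of the gp130 family, had normalized counts of 45.2, 35.2, 44.5 and 37.2 in tributyrin mice 9 to 12, against 38.1, 49.9, 50.4 and 30.3 in vehicle mice 5 to 8. All 4 tributyrin values lay inside the range of the vehicle values, in which mouse 7 was highest and mouse 8 lowest. The means were 40.5 ± 5.06 in tributyrin mice and 42.2 ± 9.74 in vehicle mice (SD, n = 4 each), with a log2 fold change of -0.04 (SE 0.18, 95% interval -0.45 to 0.38, limma adjusted p = 0.939). On a linear scale the interval allowed 0.732-fold to 1.30-fold, with 4 mice a group. The recovered counts were 29 to 49 in tributyrin mice and 28 to 68 in vehicle mice. Leaving out tributyrin mouse 10 or 12 or vehicle mouse 6 or 7 gave values above 0, at 0.03, 0.0031, 0.06 and 0.06 on the log2 scale in that order, and leaving out vehicle mouse 8 gave -0.18. Quantile normalization gave -0.25.

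Il11 (gene ID 16156, chr7:4772373-4782907), whose product signals through gp130 and acts on stromal and epithelial cells, had normalized counts of 96.6, 103, 84.4 and 96.6 in tributyrin mice 9 to 12, against 94.9, 92.2, 84.4 and 91.9 in vehicle mice 5 to 8. The groups overlapped, with tributyrin mouse 11 and vehicle mouse 7 at about the same low level. The means were 95.2 ± 7.82 in tributyrin mice and 90.9 ± 4.50 in vehicle mice (SD, n = 4 each), with a log2 fold change of 0.06 (SE 0.08, 95% interval -0.11 to 0.24, limma adjusted p = 0.698). The sign turned with quantile normalization, which gave -0.05. Without tributyrin mouse 11 the log2 fold change was 0.12. The groups then did not overlap, as they must once the only tributyrin mouse not above all vehicle mice is dropped. With that omission 32 of 248 panel genes had groups without overlap. Leaving out tributyrin mouse 10 gave 0.02, vehicle mouse 7 gave 0.03 and the 2 shallowest mice gave 0.04.

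Il10 (gene ID 16153, chr1:131019845-131024970), the anti-inflammatory ligand among these genes, had normalized counts of 23.4, 30.2, 39.9 and 29.7 in tributyrin mice 9 to 12, against 32.4, 33.6, 27.4 and 32.4 in vehicle mice 5 to 8. The vehicle values lay inside the range of the tributyrin values, in which mouse 11 was highest and mouse 9 lowest. The means were 30.8 ± 6.83 in tributyrin mice and 31.5 ± 2.78 in vehicle mice (SD, n = 4 each), with a log2 fold change of -0.05 (SE 0.16, 95% interval -0.42 to 0.31, limma adjusted p = 0.886). Mouse 9, the shallowest, had only 15 counts for Il10, and its 95% Poisson interval of 13.1 to 38.5 normalized counts, which covers counting error only, overlapped that of mouse 11, at 29.0 to 53.6. Without mouse 9 the log2 fold change was 0.07, without mouse 11 it was -0.19, and without both shallow mice, 9 and 12, it was 0.15. With the scaling factor as a covariate it was 0.02, and with quantile normalization -0.30. The other 6 omissions of 1 mouse gave -0.12 to -0.02.

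**Figure D1:**
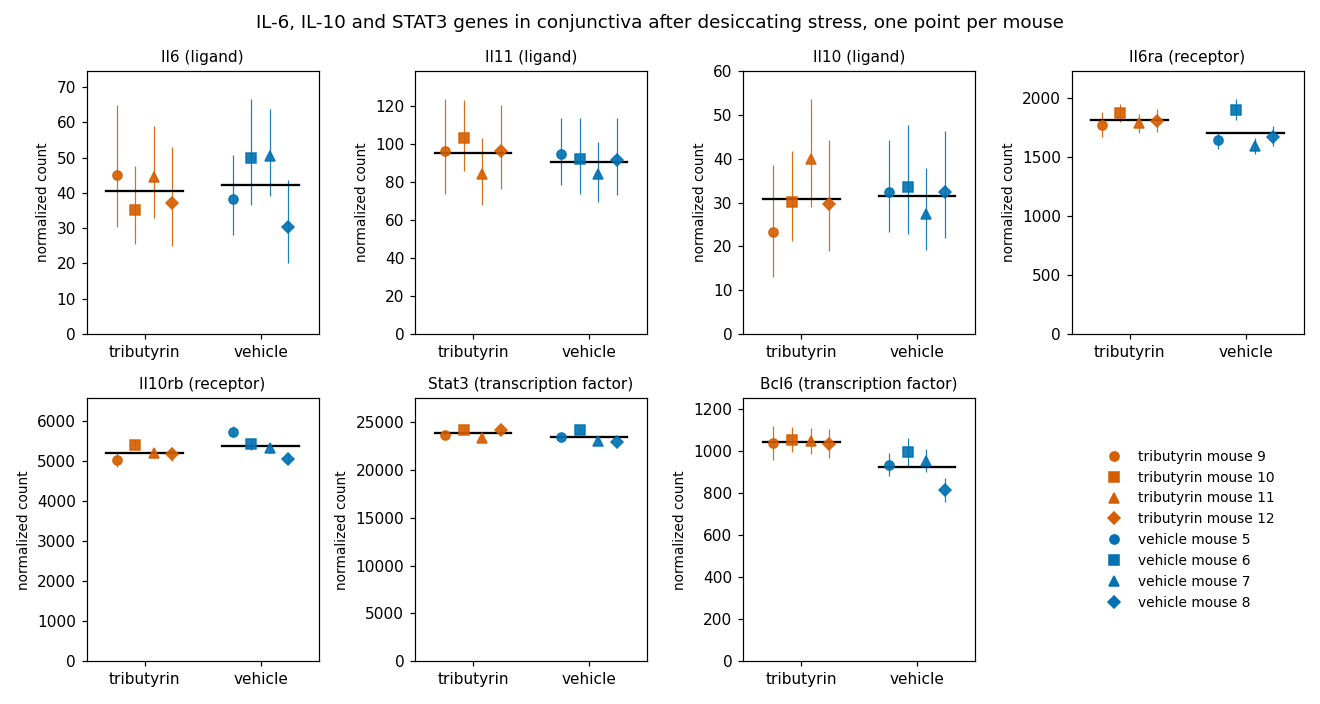
Normalized count (vertical axes, from 0) of each gene in 4 tributyrin and 4 vehicle mice, with 1 point per mouse, the 95% Poisson interval of its count as a thin line and the group mean as a horizontal bar. The groups of Bcl6 do not overlap, with 1034 to 1053 in tributyrin mice and 813 to 994 in vehicle mice, while those of the other genes do.

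Of the receptor chains, Il6ra (gene ID 16194, chr3:89869324-89913196), which binds interleukin-6 and sets which cells respond to it directly, had normalized counts of 1772, 1871, 1783 and 1806 in tributyrin mice 9 to 12, against 1641, 1899, 1589 and 1672 in vehicle mice 5 to 8. All 4 tributyrin mice lay above 3 of the 4 vehicle mice, and vehicle mouse 6 lay above all 4 tributyrin mice. The means were 1808 ± 44.2 in tributyrin mice and 1700.0 ± 137 in vehicle mice (SD, n = 4 each), with a log2 fold change of 0.09 (SE 0.07, 95% interval -0.06 to 0.25, limma adjusted p = 0.591). The linear interval was 0.957-fold to 1.19-fold. Without vehicle mouse 6 the log2 fold change was 0.15, with an adjusted p of 0.420 by limma. The groups then did not overlap, as they must once the only vehicle mouse above the tributyrin mice is dropped. With that omission 28 of 248 panel genes had groups without overlap. Quantile normalization gave 0.15 as well, leaving out vehicle mouse 7 gave 0.06, and no setting turned the sign.

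Il10rb (gene ID 16155, chr16:91406157-91425834), the accessory chain of the IL-10 receptor, had normalized counts of 5030, 5394, 5197 and 5162 in tributyrin mice 9 to 12, against 5730, 5416, 5323 and 5056 in vehicle mice 5 to 8. Vehicle mice 5 and 6 lay above all 4 tributyrin mice, vehicle mouse 8 lay below 3 of them, and the groups overlapped. The means were 5196 ± 151 in tributyrin mice and 5381 ± 278 in vehicle mice (SD, n = 4 each), with a log2 fold change of -0.05 (SE 0.06, 95% interval -0.18 to 0.08, limma adjusted p = 0.698). The linear interval was 0.883-fold to 1.06-fold. With quantile normalization the log2 fold change was 0.02, leaving out vehicle mouse 5 gave -0.02, and leaving out vehicle mouse 8 gave -0.08. It was also -0.02 with the scaling factor as a covariate and without the 2 shallowest mice.

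Of the transcription factors, Stat3 (gene ID 20848, chr11:100886806-100939594), the shared effector of these receptors, had normalized counts of 23635, 24116, 23260 and 24196 in tributyrin mice 9 to 12, against 23428, 24172, 23034 and 22929 in vehicle mice 5 to 8. The groups overlapped, and vehicle mouse 6 lay between the 2 highest tributyrin mice. The means were 23802 ± 438 in tributyrin mice and 23391 ± 563 in vehicle mice (SD, n = 4 each), with a log2 fold change of 0.03 (SE 0.05, 95% interval -0.08 to 0.13, limma adjusted p = 0.807). The interval of 0.945-fold to 1.10-fold was the narrowest of the 7 genes. Quantile normalization, which keeps only the rank of a gene within each mouse, gave a difference of 0, which need not mean equal counts. With median centring the difference was 0.0056, and with 1 mouse left out it was 0.02 to 0.04 on the log2 scale. These are transcript values and give nothing on the activity of the STAT3 protein.

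Bcl6 (gene ID 12053, chr16:23965050-23988866), the repressor, had normalized counts of 1036, 1053, 1047 and 1034 in tributyrin mice 9 to 12, against 934, 994, 954 and 813 in vehicle mice 5 to 8. Every tributyrin mouse lay above every vehicle mouse, with a gap of 40.4 normalized counts between the nearest, tributyrin mouse 12 and vehicle mouse 6. The 95% Poisson intervals of these mice, 965 to 1107 and 930 to 1060 normalized counts in that order, overlapped. The means were 1043 ± 9.03 in tributyrin mice and 924 ± 77.7 in vehicle mice (SD, n = 4 each), a 1.13-fold difference (95% interval 1.01 to 1.27). The log2 fold change was 0.18 (SE 0.07, 95% interval 0.02 to 0.34), with an unadjusted p of 0.0340 and an adjusted p of 0.366 by limma. Bcl6 therefore did not pass the threshold over the panel. An exact Mann-Whitney test (two-sided) gave p = 0.0286, the smallest that 4 against 4 mice allow, and 0.394 after adjustment over the panel.

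Groups that did not overlap were found for 1 of the 7 genes, against 7.26% of the panel in either direction (18 of 248) and 3.23% with tributyrin higher (8 of 248). The log2 fold change of Bcl6 was above 0 in every setting tried. Since its groups do not overlap, leaving out mice or adding a pseudocount could not turn the sign. The filters, the rank test and the mean-variance trend leave the value as it is. The size of the log2 fold change depended on the scaling and on 1 mouse. It was 0.34 with quantile normalization (limma adjusted p = 0.0679), 0.16 with each mouse centred on its median (0.703), where the groups did overlap, and 0.12 without vehicle mouse 8 (0.462). Over all alternatives the adjusted p of Bcl6 was 0.0679 to 0.703.

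**Figure D2:**
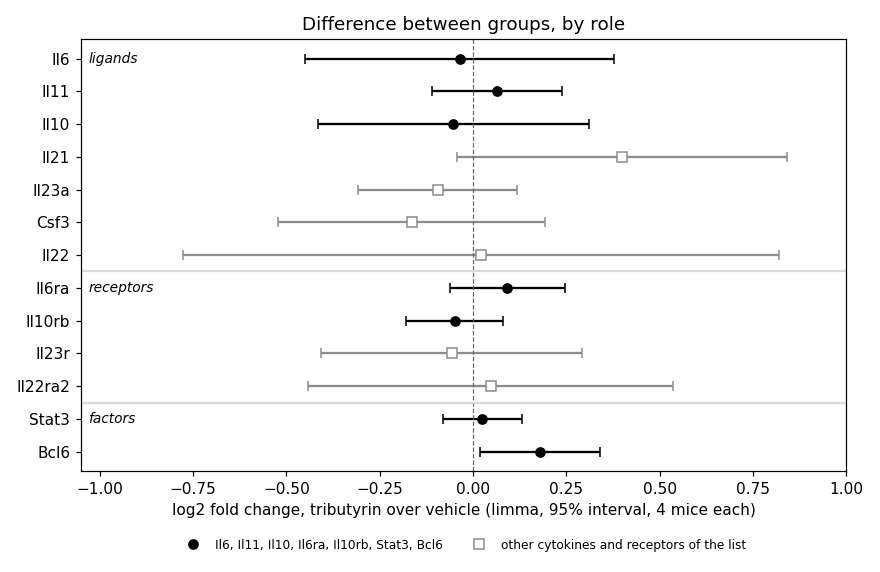
Log2 fold change, tributyrin over vehicle, with its 95% limma interval (4 mice each), for the 7 genes (filled circles) and the 6 other measured genes of the cytokine and receptor lists (open squares), by role. The interval of Bcl6, 0.02 to 0.34, lies above 0 before adjustment, and the other 12 intervals include 0.

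The spread between mice differed between the genes and between the groups. For Bcl6 the SD was 0.866% of the mean in tributyrin mice and 8.41% in vehicle mice, where counting error alone would give 3.30% and 3.17% in the same order. The 4 tributyrin mice thus lay closer together than counting error alone gives. Il6ra had the same order, with 2.45% in tributyrin mice and 8.04% in vehicle mice, against 2.50% and 2.35% from counting. Il10 had the opposite one, with 22.2% in tributyrin mice and 8.82% in vehicle mice, where counting gives 18.8% and 17.3%. For Il6 the SD was 12.5% of the mean in tributyrin mice and 23.1% in vehicle mice (counting 16.8% and 14.8%), and for Il11 it was 8.22% in tributyrin mice and 4.95% in vehicle mice (counting 10.9% and 10.1%). A spread below counting error was thus found in 6 of the 14 gene and group pairs, and for Bcl6 in tributyrin mice only. These differences in spread were not tested.

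For Il10rb and Stat3 the spread between mice was larger than counting error in both groups. It was 2.90% in tributyrin mice and 5.17% in vehicle mice for Il10rb (counting 1.47% and 1.31%), and 1.84% in tributyrin mice and 2.41% in vehicle mice for Stat3 (counting 0.691% and 0.631%). In the vehicle group, mouse 6 had the highest value for Il10, Il6ra, Stat3 and Bcl6, and mouse 8 had the lowest for Il6, Il10rb, Stat3 and Bcl6. In the tributyrin group, mouse 10 had the highest value for Il11, Il6ra, Il10rb and Bcl6, and mouse 9 the lowest for Il10, Il6ra and Il10rb.

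**Figure D3:**
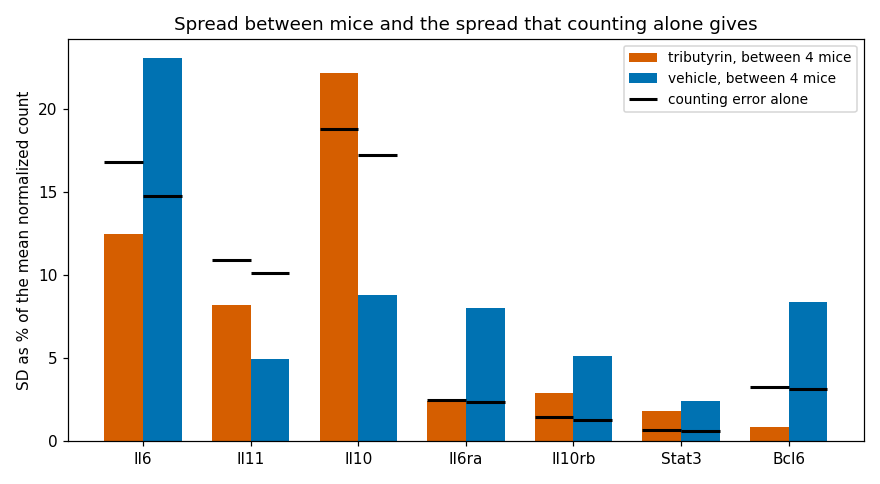
SD between mice as a percentage of the mean normalized count (vertical axis, from 0) for each gene in 4 tributyrin mice (left bars) and 4 vehicle mice (right bars), with a black line at the spread that counting error alone would give. In Bcl6 the tributyrin bar, at 0.866%, is below its line and the vehicle bar, at 8.41%, is above its line.

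The genes were set beside the rest of the panel at like levels, since the panel median differed with level. Over the 248 genes the median log2 fold change was 0.06, with 177 above 0 and 71 below. Over the 7 genes it was 0.03, with 4 above 0 and 3 below. In the 73 panel genes with a mean normalized count under 50 the median was 0.20, with 62 above 0 and 11 below. Il6 and Il10 belong to this band with values of -0.04 and -0.05, which lie above its 10th percentile of -0.07. In the 97 genes at or above 1000 the median was 0.02, and the highest 10% of values began at 0.0883. Il6ra, Il10rb and Stat3 belong to this band with 0.0917, -0.05 and 0.03, so that Il6ra lay just inside its highest 10%. Il11, at 0.06, belongs to the 32 genes between 50 and 100, of which 25 were above 0 and 7 below, with a median of 0.18. Bcl6, at 0.18, belongs to the 46 genes between 100 and 1000, whose median was 0.09 and whose highest 10% began at 0.24. Its mean of 983 lies just under the edge of the next band, whose highest 10% began lower, at 0.0883. How Bcl6 compares with genes at like levels thus depends on the band edge. The shallowest libraries, mice 9 and 12, were in the tributyrin group, and without them the median over the 248 genes was 0.01.

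The genes whose pattern over the 8 mice was most like that of each gene were sought among 142 other panel genes at or above a mean of 100. The mice share the groups and the scaling of each library, so that Pearson's r is given as a description. For Il6ra the nearest were Map2k4, a kinase upstream of JNK (r = 0.911), and Tollip, an adaptor that dampens Toll-like receptor signalling (r = 0.862). For Stat3 they were Map2k4 again (r = 0.917) and Alox12, a lipoxygenase (r = 0.864). For Il10rb they were Hif1a, the oxygen-regulated transcription factor (r = 0.955), and Nfkb1, an NF-kB subunit (r = 0.861). With the group means removed, r for these 6 pairs was 0.838 to 0.955. For Bcl6 they were Mknk1, a kinase downstream of MAP kinases (r = 0.841), and Map3k5, a stress-activated kinase (r = 0.836), and with the group means removed r was 0.569 for Mknk1 and 0.742 for Map3k5. The groups of Mknk1 did not overlap, with 1642 ± 47.1 in tributyrin mice and 1515 ± 36.7 in vehicle mice (SD, n = 4 each, limma adjusted p = 0.372). Mknk1 was picked for its likeness to Bcl6 over all mice, the group difference included, so this is not a separate observation.

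Of a list of 41 cytokines, receptors and factors of the same pathway, 13 were measured, the 7 genes included. None passed the test in either direction, 7 were above 0 and 6 below, and the median log2 fold change was 0.02. Il21, a T-cell cytokine that signals through STAT3, had 42.5 ± 5.04 in tributyrin mice and 32.9 ± 7.70 in vehicle mice (SD, n = 4 each), with a log2 fold change of 0.40 (95% interval -0.04 to 0.84, limma adjusted p = 0.454), which was 0.21 without vehicle mouse 8. Csf3, the neutrophil growth factor, had 39.5 ± 6.56 in tributyrin mice and 44.1 ± 6.73 in vehicle mice (log2 fold change -0.16, limma adjusted p = 0.673), with -0.05 without tributyrin mouse 11 and -0.33 without the 2 shallowest mice. Il23a, a subunit of interleukin-23, had 49.2 ± 2.83 in tributyrin mice and 52.7 ± 5.87 in vehicle mice (log2 fold change -0.09, limma adjusted p = 0.677), with -0.05 without vehicle mouse 8 and -0.22 with quantile normalization. Among receptors, Il23r had 98.4 ± 18.2 in tributyrin mice and 102 ± 13.5 in vehicle mice (limma adjusted p = 0.867), and Il22ra2, which encodes a soluble protein that binds interleukin-22, had 20.8 ± 3.39 in tributyrin mice and 20.5 ± 5.45 in vehicle mice (limma adjusted p = 0.935). Il22 was near 9.12 in tributyrin mice and 8.21 in vehicle mice, and its interval was -0.78 to 0.82 on the log2 scale.

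Of 25 genes known as STAT3 targets, 12 were measured, Bcl6 and Il10 among them. None was called, 7 were above 0 and 5 below, and the median log2 fold change was 0.09, against 0.06 for the panel. The values ran from -0.43, in a gene not named here, to 0.55 in Il17a. Over the 8 of the 12 at or above a mean of 100 the median was -0.0052. Il17a, the cytokine of Th17 cells, had 30.9 ± 5.69 in tributyrin mice and 21.0 ± 2.32 in vehicle mice (SD, n = 4 each), with a log2 fold change of 0.55 (95% interval 0.20 to 0.89, limma adjusted p = 0.167). The groups of Il17a did not overlap, with 23.5 to 36.3 in tributyrin mice and 17.8 to 22.8 in vehicle mice. Its level was in the band under 50, in which the panel median was 0.20. The highest 10% of that band began at 0.46, below the 0.55 of Il17a. Mmp9, a matrix metalloproteinase, had 49.6 ± 7.56 in tributyrin mice and 41.0 ± 5.15 in vehicle mice (limma adjusted p = 0.454), a log2 fold change of 0.27 that was 0.17 without tributyrin mouse 9 and 0.11 with quantile normalization.

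Of 21 genes known to be repressed by IL-10 in myeloid cells, 20 were measured. None was called, 13 were above 0 and 7 below, and the median log2 fold change was 0.12, with 11 of the 20 in the band under 50. The median was below 0 with quantile normalization (-0.02), without tributyrin mice 9 and 12 (-0.01) and over the 2 of the 20 genes at or above a mean of 100, Tnf and 1 other (-0.22). Il12a, a subunit of interleukin-12, had 21.8 ± 2.69 in tributyrin mice and 29.4 ± 2.91 in vehicle mice (SD, n = 4 each), with groups that did not overlap and a log2 fold change of -0.44 (95% interval -0.69 to -0.18, limma adjusted p = 0.116). Il12b, the other subunit, had 31.6 ± 2.56 in tributyrin mice and 27.1 ± 4.11 in vehicle mice (log2 fold change 0.23, limma adjusted p = 0.469), with 0.12 without vehicle mouse 5 and 0.06 with quantile normalization. Tnf, a central inflammatory cytokine, had 369.7 ± 59.0 in tributyrin mice and 474 ± 86.2 in vehicle mice (log2 fold change -0.35, 95% interval -0.73 to 0.03, limma adjusted p = 0.454), with -0.54 without the 2 shallowest mice.

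Of 14 genes known to be repressed by BCL6, 8 were measured. None was called, 6 were above 0 and 2 below, and the median log2 fold change was 0.15, which was 0.01 with quantile normalization and -0.04 over the 3 of the 8 genes at or above a mean of 100, where it is the value of Nfkb1. Ccl8, a monocyte-attracting chemokine, had 47.5 ± 2.85 in tributyrin mice and 40.7 ± 4.86 in vehicle mice (SD, n = 4 each, limma adjusted p = 0.393), and Ccl7, its relative, had 80.2 ± 9.16 in tributyrin mice and 69.4 ± 7.80 in vehicle mice (limma adjusted p = 0.469). Without vehicle mouse 6 the log2 fold change of Ccl8 was 0.14, against 0.23 with all mice, and that of Ccl7 was 0.13, against 0.21. Quantile normalization gave 0.12 for Ccl8 and 0.0017 for Ccl7. Irf7, an interferon-induced transcription factor, ran the other way. It had 4863 ± 131 in tributyrin mice and 6143 ± 409 in vehicle mice (SD, n = 4 each), with groups that did not overlap and a log2 fold change of -0.33 (95% interval -0.48 to -0.19, limma adjusted p = 0.0516). Irf7 passed the threshold in 6 of the alternatives, with an adjusted p of 0.00644 under limma's mean-variance trend, for example. None of the lists was tested as a set.

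**Figure D4:**
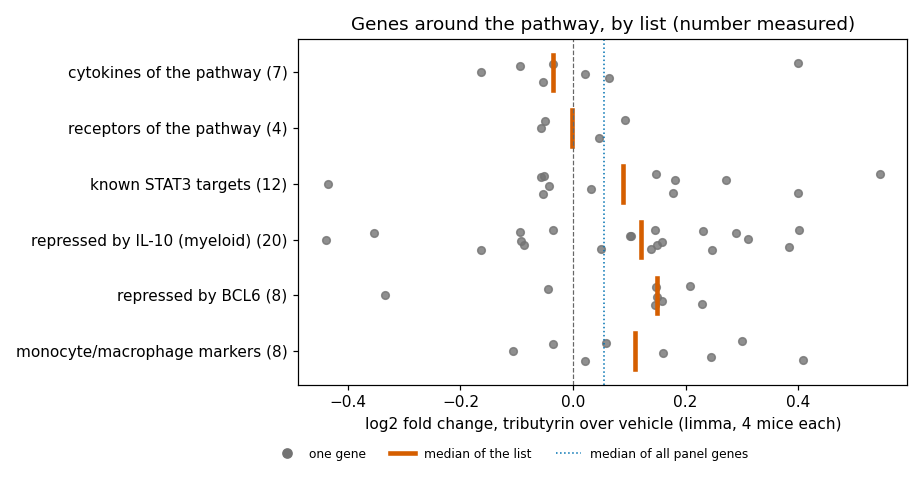
Log2 fold change, tributyrin over vehicle (limma, 4 mice each), of each measured gene of 6 lists, with the list median as a short orange line and the median of all 248 genes, 0.06, as a dotted line. The genes of each list lie on both sides of 0, and 0 of them were called.

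Cells that make or answer these cytokines could be followed only in part. Of 13 monocyte and macrophage markers 8 were measured, and their summed normalized count was 23925 to 29864 in tributyrin mice and 25503 to 30302 in vehicle mice. Without Arg1 the other 7 summed to 2732 to 3253 in tributyrin mice and 2816 to 3061 in vehicle mice. None of the 8 was called, with 6 above 0 and 2 below, and their median log2 fold change of 0.11 was -0.07 without tributyrin mice 9 and 12. Ccr2, the receptor of inflammatory monocytes, had 134 ± 24.7 in tributyrin mice and 100.1 ± 12.2 in vehicle mice (SD, n = 4 each, limma adjusted p = 0.321), a log2 fold change of 0.41 that was 0.19 without mice 9 and 12. Cd163, a scavenger receptor of macrophages, had 103 ± 23.8 in tributyrin mice and 83.4 ± 14.9 in vehicle mice (limma adjusted p = 0.480), a log2 fold change of 0.30 that was 0.02 without mice 9 and 12. Ly96, a part of the endotoxin receptor, had 1621 ± 97.1 in tributyrin mice and 1744 ± 29.6 in vehicle mice (limma adjusted p = 0.469).

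T cells, neutrophils and dendritic cells were each represented by 1 marker. Cd4 had 33.2 ± 10.5 in tributyrin mice and 28.1 ± 6.91 in vehicle mice (SD, n = 4 each, limma adjusted p = 0.698), and Cxcr2 had 38.9 ± 8.89 in tributyrin mice and 29.1 ± 3.67 in vehicle mice (limma adjusted p = 0.416). Without tributyrin mice 9 and 12 the log2 fold change of Cd4 was 0.02, against 0.22 with all mice, and that of Cxcr2 was 0.12, against 0.40. Ccr7, carried by migrating dendritic cells and by T cells, had 17.2 ± 3.34 in tributyrin mice and 10.9 ± 0.969 in vehicle mice, with groups that did not overlap and a log2 fold change of 0.64 (95% interval 0.30 to 0.97, limma adjusted p = 0.0752). It was 0.37 with a pseudocount of 10 and 0.40 without mice 9 and 12, and Ccr7 belongs to the band under 50, where the panel median was 0.20. With all mice its value of 0.64 was the highest of the 248 panel genes. The mean of Ccr7 over all mice, 14.1, was near the floor, and the filter at a mean of 20 leaves it out. In mouse 9 the lowest count of any gene was 9, and counts were multiplied by 1.56, against 0.741 to 1.08 in vehicle mice. The part of counting and scaling in the separation of the Ccr7 groups was not tested. The part of these cell types in the values of Bcl6 was not tested. Of 7 markers of conjunctival epithelium and goblet cells, 4 of B cells, 5 of mast cells and 6 of fibroblasts and endothelium, 0 were measured, so the labelled tissue could not be checked against its own markers.

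**Figure D5:**
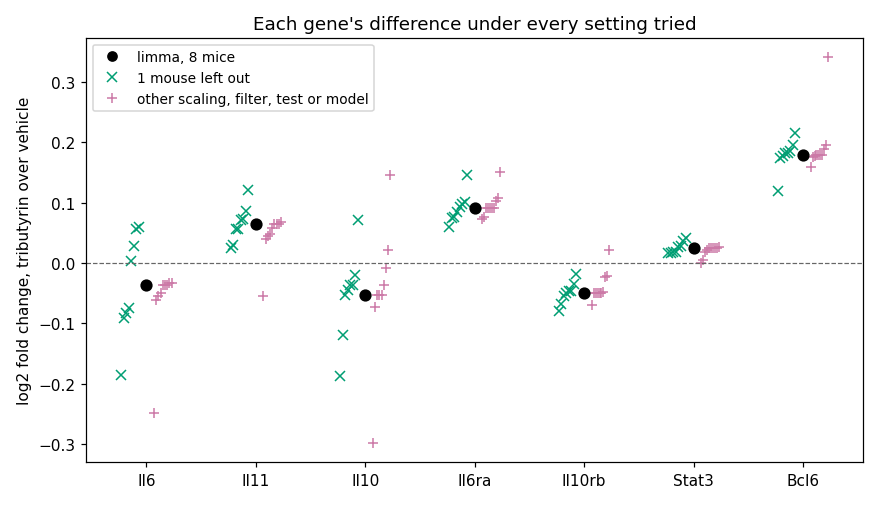
Log2 fold change, tributyrin over vehicle, of each gene in the limma fit of all 8 mice (circle), with 1 mouse left out (crosses) and under the other scalings, filters, tests and models (plus signs). Bcl6 and Il6ra stay above 0 throughout, Stat3 is at 0 under quantile normalization, and Il6, Il11, Il10 and Il10rb lie on both sides of 0.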

How the data were processed

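Transcripts of 4 tributyrin and 4 vehicle mice under DS were counted on the NanoString nCounter inflammation panel. The authors scaled nCounter counts to the geometric mean of reference genes and deposited log2 normalized counts of 248 genes, 1 column per mouse. The sources used here do not say whether background was subtracted. Counts were recovered from the steps of the values. No columns were identical, and mice were taken as separate animals because the labels number each one.

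The log2 values were fitted as deposited with limma 3.58.1 in R 4.3.3 (lmFit and eBayes, two-sided, group as the only term), with Benjamini-Hochberg adjustment over 248 genes, after the fit was tested on simulated data. No filter on low values was applied. Alternatives were filters at a mean of 20 and 100, a pseudocount of 10, quantile normalization, median centring, a trend of variance with mean, voom on recovered counts, an exact Mann-Whitney test (Mann-Whitney U is the general pairwise test of the methods, not stated for these data), the scaling factor as a covariate, and leaving out the 2 shallowest mice or each mouse.

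The genes, lists, motif and alternatives were chosen with earlier results of these data known. Named beside the 7 genes were the 3 measured genes per list whose unadjusted p was smallest and, for genes at or above a mean of 100, the 2 genes of highest Pearson r. Il22 was named after its values were seen. All 7 gene IDs matched RefSeq on GRCm38.p6, the source of coordinates and promoter sequences. Poisson intervals cover counting error only. Other steps used matplotlib 3.10.9, Python 3.11.15 and SciPy 1.17.1.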

Additional observations from a re-analysis of the deposited data

Results flagged for a closer look

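Of 66 groups of 4 mice examined (the 7 genes and the other named genes except Il22, each in tributyrin and in vehicle mice), 0 held a mouse far from the other 3 by Dixon's test, where chance gives about 3.3.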

How the results depend on the processing

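None of the 7 genes was called under any alternative, and the lowest adjusted p was 0.0679. Of their 123 log2 fold changes under alternatives, 114 kept their direction and side of the threshold and 9 turned sign: Il11 (-0.054) and Il10rb (0.022) with quantile normalization, Il10 with the scaling factor as covariate (0.022) and without the 2 shallowest mice (0.15), and Il6 and Il10 with 1 mouse left out (-0.18 to 0.060 and -0.19 to 0.071). The filters, the exact rank test and the mean-variance trend leave each log2 fold change as it was, so that no sign could turn there. A filter at a mean of 100 leaves out Il6, Il11 and Il10.

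The count of panel genes called, 0 of 248, was 7 with a filter at 100, 6 with a filter at 20, 7 with a mean-variance trend, 7 with voom, 6 with a pseudocount of 10 and 6 with median centring. With 1 mouse left out it was 0 to 6, reaching 6 if vehicle mouse 8, 4 if tributyrin mouse 11 and 1 if vehicle mouse 5 was dropped. The 18 panel genes without overlap became 42 without the 2 shallowest mice and 26 to 35 with 1 mouse left out, where fewer mice make overlap rarer. Of the 7 genes, 0 were without overlap after median centring and 1 to 2 with 1 mouse left out.

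Of 453 values of the other named genes except Il22, 9 turned sign: Il22ra2 (-0.10) and Nfkb1 (0.042) with quantile normalization, Il22ra2 (-0.14), Hif1a (0.00097) and Alox12 (-0.0078) without the 2 shallowest mice, and Il22ra2 (-0.12 to 0.19) and Il23r (-0.17 to 0.038) with 1 mouse left out. Here too the filters, the exact rank test and the mean-variance trend could not turn a sign. Irf7 passed the threshold in 6 alternatives and Ccr7 in 2. Where no reason is given, the cause was not tested.

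No paired analysis was possible because mice 9 to 12 and mice 5 to 8 carry different numbers. Il6 and Il10 rested on as few as 28 and 15 counts in a mouse, and the part of counting in their intervals was not tested.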
